A study of Rattus norvegicus with 47 samples.

Results

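The step from 6 h to 24 h in blood after middle cerebral artery (MCA) occlusion was measured as the difference between the mean of the 24 h arrays and the mean of the 6 h arrays, in every probe set of a rat gene array. It used 15 of the 47 arrays of the series, 8 at 24 h and 7 at 6 h, and all 27596 probe sets. The animals were 8 male SHR rats (spontaneously hypertensive rats) of 16 weeks, each with a transient occlusion of the MCA by a coated thread under isoflurane, and no sham-operated animals are among the samples. Blood was drawn from the tail vein at 0 h, before anaesthesia, and at 1, 2, 3 and 6 h, whereas the 24 h blood was taken from the heart right after an isoflurane overdose. The time after occlusion, the site of the draw, the overdose and the hour of the day therefore all differed between 6 h and 24 h and cannot be told apart here. The same 7 rats gave both samples. Rat 3 has none at 6 h.

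Whole blood RNA is a mixture from red cell precursors, platelets and several kinds of leukocyte. After a stroke or another acute stress, neutrophils are released from the marrow and other stores into the blood while lymphocytes leave it, and inflammatory, hypoxic and glucocorticoid signals act on the cells that remain. Reticulocytes, the youngest red cells, still carry mRNA for haem synthesis, transferrin uptake and the membrane skeleton. A lower signal of a cell type's genes can come from fewer cells of that type or from less RNA per cell. It can also come from more RNA of other cells, since the paper started each array from a fixed amount of RNA. These sources cannot be told apart in bulk blood. The arrays held the markers of blood at both times: at 24 h the log2 signal was 10.16 for Cd79b (B cells), 9.41 for Cd3e (T cells), 12.01 for S100a9 (neutrophils), 10.69 for Csf1r (monocytes), 13.40 for Alas2 (erythroid cells) and 13.10 for Pf4 (platelets).

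Values are log2 signals after robust multi-array average (RMA) processing, so that a difference of 1 is a doubling. They are the authors' means, with the authors' SD over the 8 arrays at 24 h and the 7 arrays at 6 h, because the values of single rats were left aside. A step is the 24 h mean minus the 6 h mean, and its standard error (SE) comes from a spread shared by the 6 time points. A probe set was called when limma's moderated test gave a Benjamini-Hochberg adjusted p under 0.05 over all probe sets. The number of arrays limits the precision: the median SE of a step was 0.08, and the smallest step that was called was 0.10. Signals of different probe sets are not compared as levels of their genes, since probes differ in how brightly they hybridize. The median signal over all probe sets was 6.64 at 6 h and 6.65 at 24 h, and the median step was 0.00.

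Of the 27596 probe sets, 5211 (18.9%) were called between 6 h and 24 h. The signal was higher at 24 h in 2817 (10.2%) and lower in 2394 (8.68%). The rises were the smaller changes, with a median of 0.35 against -0.38 for the falls, and the large steps were mostly falls: among called probe sets, 206 fell by at least 1 on the log2 scale and 36 rose by as much. The step was larger than the higher of the SDs at the 2 times in 2744 of the probe sets called higher and in 2359 of those called lower.

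Set beside the other steps between neighbouring time points, the step from 6 h to 24 h called the second largest number. From 0 h to 1 h 10237 probe sets (37.1%) were called, from 1 h to 2 h 2422 (8.78%), from 2 h to 3 h 973 (3.53%) and from 3 h to 6 h 1319 (4.78%). The steps cover unequal lengths of time and neighbouring steps share the arrays of the time point between them. In size, 242 called probe sets moved by at least 1 from 6 h to 24 h, against 215 from 0 h to 1 h and at most 25 in each of the steps between. The step from 6 h to 24 h was the largest of the 5 steps in 6461 probe sets (23.4%) and that from 0 h to 1 h in 12113 (43.9%).

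**Figure D1:**
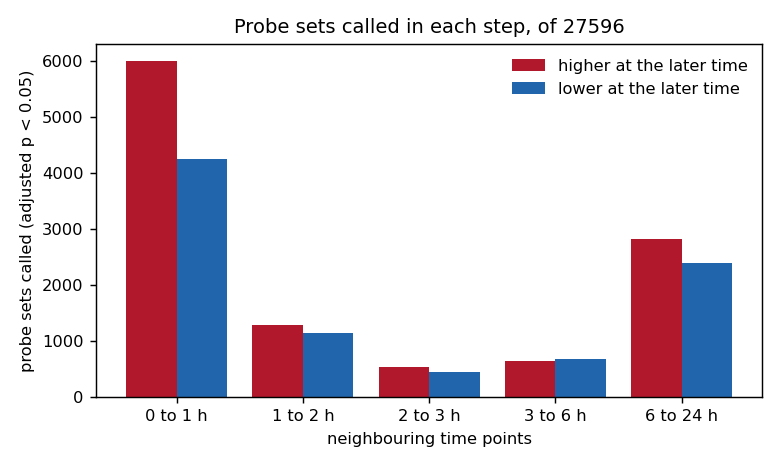
Bars give the number of probe sets, of 27596, called higher (red) and lower (blue) at the later of each pair of neighbouring time points after MCA occlusion, by limma at an adjusted p under 0.05. The step from 6 h to 24 h, with 2817 higher and 2394 lower, is second to the step from 0 h to 1 h.

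The largest rise was that of Tfrc, the transferrin receptor, which takes up iron in red cell precursors and in dividing cells. Its signal was 7.59 ± 0.29 at 6 h and 9.37 ± 0.37 at 24 h, a step of 1.78 (SE 0.14, 95% interval 1.49 to 2.07), or 3.43-fold, with an adjusted p of 1.45e-13 by limma. At 0 h it was 8.16 ± 0.12. The gene was thus lower at 6 h than at 0 h, by a difference of -0.56, and higher at 24 h than at 0 h, by 1.21. Tfrc lies on chromosome 11 of rn5 (74482209 to 74497508, minus strand).

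Of the 12 largest rises among genes with a name, 5 were in the list of B cell genes. Ms4a1 (CD20, the B cell surface marker, chromosome 1, 234494122 to 234506270) was 8.27 ± 0.31 at 6 h and 9.59 ± 0.30 at 24 h, a step of 1.32 (SE 0.14, limma adjusted p 1.74e-10). Fcer2 (CD23, the low-affinity IgE receptor of B cells) was 6.41 ± 0.23 and 7.70 ± 0.44, a step of 1.29. The signalling chain of the B cell receptor Cd79a, whose probe set is shared in the annotation with a like gene, was 8.50 ± 0.13 and 9.73 ± 0.38, a step of 1.23. Steps between 1.21 and 1.27 were measured for Hvcn1, a proton channel of B cells and other leukocytes, Btla, an inhibitory receptor of lymphocytes, Ebf1, a transcription factor that sets the B cell lineage, and Bank1, a B cell scaffold protein, in which 6 of 6 probe sets were called higher. For each of these 7 genes the 24 h mean lay below the 0 h mean, with differences from 0 h between -0.34 (Btla) and -1.0 (Fcer2) at 24 h and between -1.60 and -2.29 at 6 h. Dnase2b, a deoxyribonuclease, had the same course, with differences from 0 h of -2.05 at 6 h and -0.86 at 24 h and a step of 1.19.

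The other genes among the 12 stood above their 0 h level at 24 h. Serpinb2, an inhibitor of plasminogen activators made by monocytes, stood at 5.13 ± 0.29 before the occlusion, at 5.20 ± 0.29 by 6 h and at 6.44 ± 0.47 by 24 h, a step of 1.24 (SE 0.16, limma adjusted p 4.27e-08). Its difference between 6 h and 0 h was 0.07 (limma adjusted p 0.749). Acsl1, which activates long-chain fatty acids, went from 9.09 ± 0.22 to 10.31 ± 0.26 in 1 of its 2 probe sets, with 9.56 at 0 h. The other one of Acsl1 was not called, at 7.37 and 7.49. Fam92a1 went from 8.40 ± 0.45 to 9.63 ± 0.25, a step of 1.22, with 8.62 at 0 h.

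The 12 genes with the largest falls all stood above their 0 h level at 6 h, and 2 of them, Lcn2 and Il1r2, were in the list of neutrophil genes. Tgm1, a transglutaminase, had the largest fall of any gene with a name: from 10.28 ± 0.51 at 6 h to 7.56 ± 0.48 at 24 h, a step of -2.72 (SE 0.19, 95% interval -3.10 to -2.34, limma adjusted p 1.86e-15), or 6.59-fold lower. It was 3.68 above its 0 h mean at 6 h and 0.96 above it at 24 h. Lcn2, the iron-siderophore binding lipocalin of neutrophil granules, went from 11.19 ± 0.71 to 8.49 ± 0.60, with 8.37 ± 0.54 at 0 h. Its difference between 24 h and 0 h was 0.12 (limma adjusted p 0.766). Hp, haptoglobin, which binds free haemoglobin and is stored in neutrophils, went from 11.72 ± 0.17 to 9.11 ± 0.63, a step of -2.61 (SE 0.17, limma adjusted p 2.59e-16), and was 0.87 above its 0 h mean at 24 h. Il1r2, the decoy receptor that binds interleukin-1 without signalling, went from 12.01 ± 0.13 to 9.89 ± 0.62, a step of -2.12, and was 1.21 above its 0 h mean at 24 h.

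The remaining falls among the 12 lay between -2.65 and -2.18. Ifitm6, a member of the interferon-induced transmembrane family, went from 11.63 ± 0.27 to 8.98 ± 0.92, the widest SD of the 12 at 24 h. Cpne8, a calcium-dependent membrane binding copine, went from 10.36 ± 0.11 to 8.12 ± 0.69 and kept the largest distance from 0 h, 1.61. Rrm2, a subunit of ribonucleotide reductase, which makes deoxynucleotides, went from 10.71 ± 0.22 to 8.37 ± 0.43 on a probe set placed on chromosome 19 and from 11.18 ± 0.23 to 9.14 ± 0.41 on one placed on chromosome 6. The 2 Rrm2 probe sets lie at different loci under 1 symbol, so the part of each copy is uncertain. Olfm4, a granule glycoprotein of a subset of neutrophils, had a step of -2.31, as did Slc5a3, the myo-inositol transporter. Sycp2, a protein of the synaptonemal complex, had one of -2.30 and Plscr1, a phospholipid scramblase induced by interferon, one of -2.18.

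Genes of stefin A, an inhibitor of cysteine proteases, lie together on chromosome 11 and held the largest fall of all. Stfa2l2 went from 8.53 ± 0.65 to 6.19 ± 0.61. LOC689230, annotated as similar to stefin A2 (chromosome 11, 70419285 to 70426584), went from 10.96 ± 0.44 to 7.92 ± 0.57, a step of -3.05 (SE 0.21). Its 24 h mean lay below its 0 h mean of 9.20, as Stfa2l2 did with a difference of -0.39 (limma adjusted p 0.177, not called). Stefin and Ifitm genes have close copies that can share probes, so the gene behind each of these values is uncertain.

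**Figure D2:**
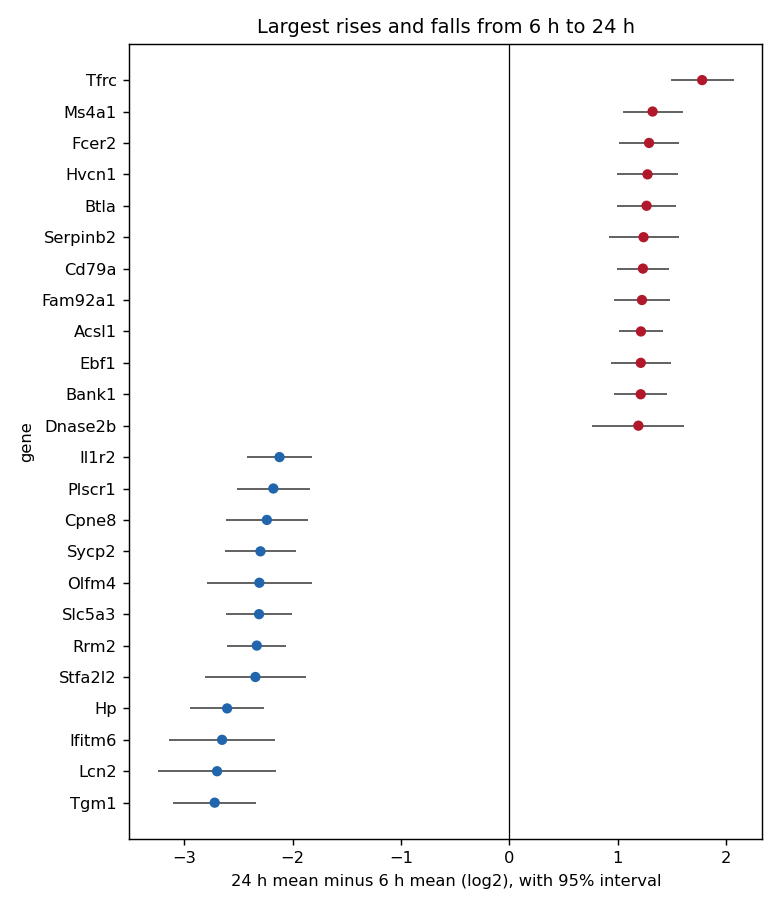
Points give the 24 h mean minus the 6 h mean on the log2 scale for the 12 genes with the largest rise (red) and the 12 with the largest fall (blue), and lines the 95% interval from limma's moderated spread. The rises reach 1.78 (Tfrc) and the falls -2.72 (Tgm1), and no interval touches 0; the genes were chosen by these steps.

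Genes of B cells rose the most as a group. Of 20 measured, 18 were called higher at 24 h, none lower, and the median step was 0.99, beside 10.2% higher and a median of 0.00 over all probe sets. All 10 members of the B cell receptor complex and its signalling rose, from Btk (0.22) to Cd79a. The call of Btk was lost after centring (limma adjusted p 0.0591), with the spread from 6 h and 24 h only and with a trended prior. Among surface genes Cr2, the complement receptor on B cells, rose from 8.12 ± 0.29 to 9.15 ± 0.17. The 2 members that were not called were the transcription factor Pax5 (9.08 and 9.09, with 9.20 at 0 h) and the tetraspanin Cd37 (10.18 and 10.21, with 10.48 at 0 h). The median of the B cell list differed from 0 h by -1.40 at 6 h and by -0.49 at 24 h.

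T cell genes rose by less. Of 24 measured, 19 were called higher (79.2%, beside the 10.2% of all probe sets) and none lower, with a median step of 0.42. The largest step was that of Cd4, the co-receptor of helper T cells, from 9.12 ± 0.18 to 10.05 ± 0.30. Its step was 0.93 (SE 0.12, limma adjusted p 4.67e-08). Which blood cells carried the Cd4 signal was not tested. Cd8a, the co-receptor of cytotoxic T cells, went from 9.87 ± 0.16 to 10.48 ± 0.29 and Themis, which acts in T cell development, from 8.72 ± 0.23 to 9.32 ± 0.29. In the T cell receptor complex 6 of 7 genes rose, with Cd3e from 8.94 ± 0.09 to 9.41 ± 0.32. Cd3d, of the same complex, was not called (8.79 ± 0.38 and 8.96 ± 0.21). Trat1, Zap70, Cd2 and Il7r were not called either. The median of the list differed from 0 h by -1.11 at 6 h and by -0.69 at 24 h.

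Of 19 genes of NK cells and cytotoxic lymphocytes, 2 were higher, 2 lower and 15 not called, with a median step of -0.06. The share called, 21.1%, was near the 18.9% of all probe sets. Of 7 granule genes 6 were not called, among them Gzmb, granzyme B (10.40 ± 0.38 and 10.30 ± 0.47), and Prf1, perforin (9.58 ± 0.42 and 9.53 ± 0.34), and 1 rose, the protease Ctsw, by 0.47. The receptor Klrb1b fell from 10.51 ± 0.12 to 9.55 ± 0.29 and Ncr1 fell by 0.29, while the receptor Klrk1 rose by 0.40. Klrb1 genes have close copies on the genome. Of 10 genes of MHC class II antigen presentation, which B cells, monocytes and dendritic cells carry, 4 rose (40%, beside the 10.2% of all probe sets): RT1-DOb (0.62), RT1-Ba (0.33), RT1-Db1 (0.23) and Ciita (0.42), the transactivator of the class. Cd74, the invariant chain, was not called, at 11.26 ± 0.17 and 11.43 ± 0.28.

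Neutrophil genes fell. Of 33 measured, 26 were called lower and none higher (background 8.68% lower), and the median step was -0.74. All 10 receptors fell, among them Fpr1, the formyl peptide receptor (12.37 ± 0.09 to 11.14 ± 0.55), Csf3r, the receptor of the growth factor G-CSF (11.94 ± 0.25 to 10.87 ± 0.35), and Trem1, an amplifier of inflammatory signals (11.87 ± 0.08 to 10.63 ± 0.34). After Lcn2 and Il1r2 the largest fall was that of Prok2, a chemokine-like peptide, from 12.43 ± 0.11 to 10.76 ± 0.52 (limma adjusted p 7.59e-13). S100a9, the calcium-binding alarmin that is abundant in neutrophil cytosol, went from 12.75 ± 0.10 to 12.01 ± 0.37, and its partner S100a8 from 12.40 ± 0.23 to 11.41 ± 0.53. At 24 h Fpr1, Csf3r, S100a8 and S100a9 were still above their 0 h means, S100a9 by 0.78, while Trem1 was not called against 0 h (a difference of 0.17, limma adjusted p 0.114). The median of the list differed from 0 h by 1.18 at 6 h and by 0.38 at 24 h.

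Of the 13 granule proteins 7 fell and 6 were not called. The signals of those 6 lay near or below the median over all probe sets (6.64 at 6 h and 6.65 at 24 h). A missing call at such signals does not show that an expressed gene held steady. Those not called were Mpo (myeloperoxidase, 6.35 and 6.31), the proteases Prtn3 (6.28 and 6.26) and Ctsg (5.80 and 5.80), Ltf, lactoferrin (5.92 and 5.89), the defensin Np4 (6.70 and 6.84) and Arg1, arginase (6.17 and 6.31). Elane, the neutrophil elastase, fell by 0.24 at a like signal, from 6.89 ± 0.16 to 6.65 ± 0.09. Camp, a cathelicidin, fell from 9.25 ± 0.36 to 7.96 ± 0.49. Others that fell were Mmp9, gelatinase B, with a step of -1.28, and Mmp8, collagenase, from 13.21 ± 0.07 to 12.80 ± 0.21. Among genes of the superoxide-producing oxidase, Ncf1 fell and Cybb, its membrane subunit, which monocytes and B cells also express, was not called (11.96 ± 0.24 and 12.06 ± 0.16).

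Monocyte genes divided. Of 19 measured, 8 rose (42.1%, beside the 10.2% higher over all probe sets) and 6 fell (31.6%, beside 8.68% lower), with a median step of -0.16. The members that fell included Cd14, the lipopolysaccharide co-receptor, from 8.77 ± 0.29 to 7.32 ± 0.22, Mrc1, the mannose receptor, from 8.08 ± 0.40 to 7.02 ± 0.19, Mpeg1, a pore-forming protein of phagocytes, from 10.90 ± 0.16 to 10.14 ± 0.22, and Ccr2, the chemokine receptor of classical monocytes, from 12.33 ± 0.17 to 11.71 ± 0.21. The members that rose included Cx3cr1, the fractalkine receptor of non-classical monocytes, from 8.63 ± 0.19 to 9.45 ± 0.36, Nr4a1, a nuclear receptor that these cells need, with a step of 0.61, Csf1r, the receptor for the growth factor CSF1, from 10.18 ± 0.23 to 10.69 ± 0.33, and Fcgr3a, an Fc receptor, from 8.85 ± 0.27 to 9.25 ± 0.32. At 6 h the genes that later fell or rose stood on opposite sides of 0 h in these 4 examples: Cd14 (7.43 at 0 h) and Ccr2 (11.75) had been above, Cx3cr1 (9.97) and Csf1r (11.23) below. Csf1r, Fcgr3a and Cx3cr1 remained below their 0 h means at 24 h. Members not called included Cd68, Cd300e, Marco and Cd163. Cx3cr1 and Nr4a1 are also expressed by lymphocytes, and Nr4a1 is counted among the immediate early genes as well.

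Among 9 genes of basophils, mast cells and eosinophils, 4 rose (44.4%, beside the 10.2% of all probe sets) and none fell. Mcpt8, a basophil protease, went from 4.93 ± 0.28 to 5.91 ± 0.49 and Il5ra, the interleukin-5 receptor chain, from 5.54 ± 0.32 to 6.35 ± 0.17. Ms4a2, a chain of the high-affinity IgE receptor, rose by 0.43 and Hdc, which makes histamine, by 0.27. All 4 were below their 0 h means at 6 h. Cpa3 (5.46 at both times), Prg2, Epx, Gata2 and Fcer1a were not called.

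**Figure D3:**
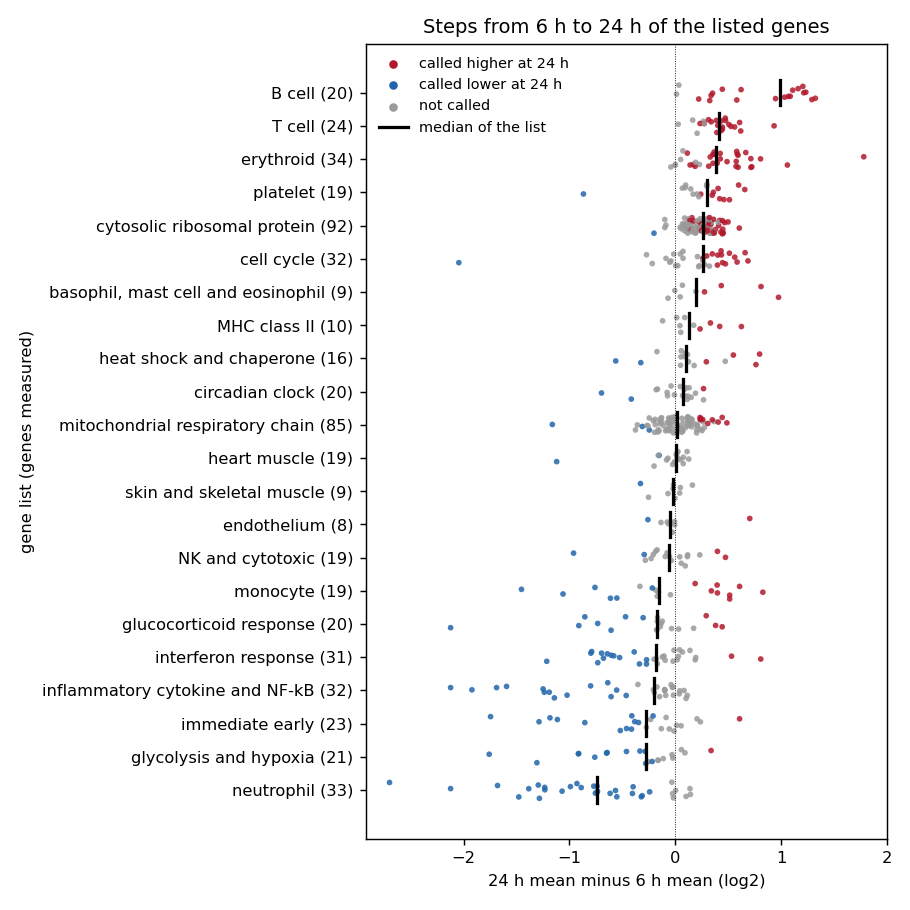
Each point is 1 gene of a list, placed by its 24 h mean minus its 6 h mean (log2), in red where called higher, in blue where called lower and in grey where not called, with a black bar at the list's median and the number of genes measured after each name. The B cell list lies furthest to the right (median 0.99) and the neutrophil list furthest to the left (median -0.74), while the monocyte list holds 8 red and 6 blue points.

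Erythroid genes rose together. Of 34 measured, 27 were called higher (79.4%, beside the 10.2% of all probe sets) and none lower, with a median step of 0.38. All 4 genes of haem synthesis rose, as did 12 of 14 of the red cell membrane and its skeleton: Ank1, ankyrin, from 9.87 ± 0.34 to 10.92 ± 0.29, Slc4a1, the anion exchanger band 3, from 11.71 ± 0.33 to 12.51 ± 0.24, Rhag, an ammonium channel, from 9.67 ± 0.18 to 10.39 ± 0.17, and Sptb, a spectrin, by 0.59. The calls of the haem synthesis genes Alas2 and Urod were lost with the spread from 6 h and 24 h only (limma adjusted p 0.167 and 0.0729), and that of Alas2 also after centring and after quantile normalization, where its step was 0.05 in place of 0.11. The transcription factors Gata1 and Klf1 rose by 0.39 and 0.31, and Tal1 was not called. Of the 5 genes listed under haemoglobin, 4 were not called. Hba1 (13.62 at both times) and Hbb (13.52 at both times) stood at the upper end of the scale, where the highest mean of any probe set at 24 h was 13.62, and haemoglobin genes have close copies. The list's median differed from 0 h by -0.07 at 6 h and by 0.32 at 24 h.

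Of 19 platelet and megakaryocyte genes 9 rose (47.4%, beside the 10.2% of all probe sets), 1 fell (5.26%, under the 8.68% of all probe sets) and 9 were not called, with a median step of 0.30. Alox12, the platelet lipoxygenase, went from 11.11 ± 0.28 to 11.76 ± 0.26, and F13a1, the A chain of factor XIII, from 11.04 ± 0.32 to 11.64 ± 0.16. The chemokine Pf4 (a step of 0.10) and the receptor Clec1b (13.06 ± 0.18 and 13.13 ± 0.08), were not called. Selp, P-selectin, fell from 8.10 ± 0.27 to 7.23 ± 0.19, with 6.70 at 0 h, and was the member that fell.

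Of 32 cell cycle genes 14 rose (43.8%) and 1, Rrm2, fell (3.13%), beside 10.2% higher and 8.68% lower over all probe sets. The rises were in mitotic genes, with Cdkn3 from 7.28 ± 0.25 to 7.96 ± 0.32, Dlgap5 from 9.27 ± 0.32 to 9.93 ± 0.20 and Bub1 from 7.54 ± 0.30 to 8.12 ± 0.21, and in DNA synthesis genes, with Mcm7 by 0.56 and Tyms by 0.51. Cdk1 (5.79 and 5.77) and Ccna2 (5.40 at both times) were not called. Rrm2 thus went against the other DNA synthesis genes that were called. Of 92 genes of cytosolic ribosomal proteins 42 rose (45.7%) and 1 fell (1.09%), beside the same shares of all probe sets, with a median step of 0.26, led by Rps15a (9.90 ± 0.49 to 10.50 ± 0.16) and Rps7 (10.04 ± 0.28 to 10.54 ± 0.13). The one that fell, Rpl3l with a step of -0.20, is the muscle form of a ribosomal protein. Some of the rises lost their call after quantile normalization or with the spread from 6 h and 24 h only. The step of Rpl21 was 0.04 after quantile normalization in place of 0.13 (limma adjusted p 0.683). Ribosomal protein genes have many processed copies that share probes. Of 85 genes of the mitochondrial respiratory chain 9 rose, 3 fell and 73 were not called (14.1% called against the 18.9% of all probe sets), with a median step of 0.02. Atp5b rose by 0.49 and Ndufb3 fell from 10.18 ± 0.47 to 9.02 ± 0.38.

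**Figure D4:**
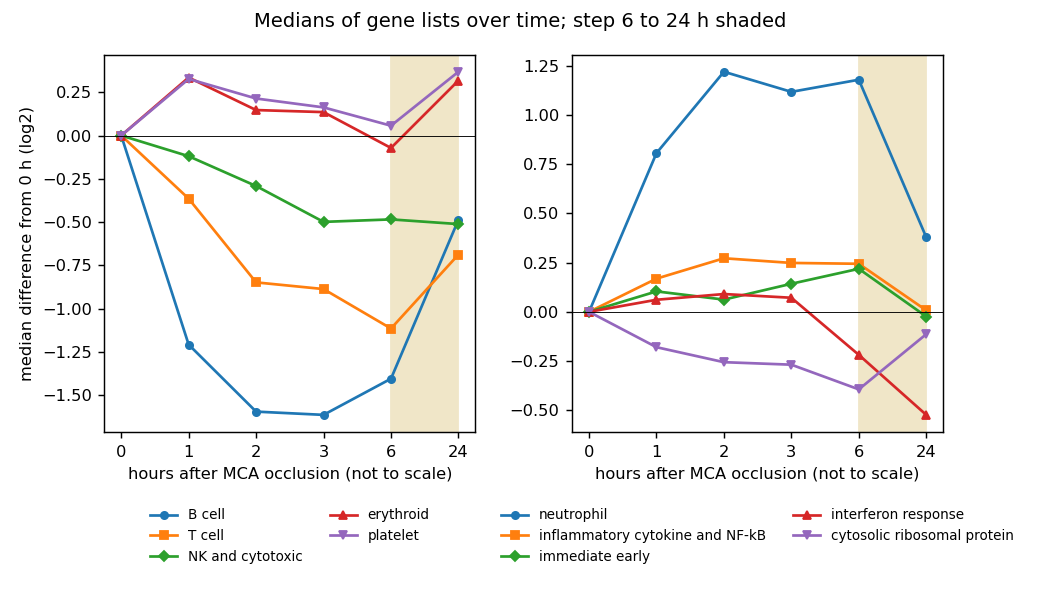
Lines give, for 10 gene lists, the median over genes of the difference from 0 h (log2) at 0, 1, 2, 3, 6 and 24 h after MCA occlusion, with the times evenly spaced and the step from 6 h to 24 h shaded. In the shaded step the B cell median goes from -1.40 to -0.49 and the neutrophil median from 1.18 to 0.38, both towards 0, while the interferon median goes from -0.22 to -0.52, away from it.

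Genes of inflammatory signalling fell or were not called. Of 32 measured, 14 fell (43.8%, beside the 8.68% of all probe sets) and none rose, with a median step of -0.20. Among receptors of the interleukin-1 family, which act on NF-kB, 4 of 5 fell: besides the decoy Il1r2, the accessory chain Il1rap went from 11.60 ± 0.19 to 9.91 ± 0.47, Il1r1 from 8.58 ± 0.33 to 7.33 ± 0.49 and Il18rap from 10.54 ± 0.25 to 9.40 ± 0.32. The effectors Nos2, the inducible nitric oxide synthase, and Ptgs2, cyclooxygenase-2, went from 10.37 ± 0.31 to 8.45 ± 0.25 and from 8.86 ± 0.31 to 7.67 ± 0.21, and Socs3, an inhibitor of cytokine signalling, from 9.43 ± 0.33 to 7.83 ± 0.15. Among 14 ligands 4 fell, with Tnf from 9.22 ± 0.36 to 7.98 ± 0.46, Ccl2 with a step of -1.02 and Osm with one of -0.80. Il1rn, the natural antagonist of the interleukin-1 receptor, fell from 11.93 ± 0.18 to 11.38 ± 0.27. Il1b itself was 12.14 ± 0.11 at 6 h and 11.95 ± 0.19 at 24 h, a step of -0.20 that was not called (SE 0.11, limma adjusted p 0.236), and lay above its 0 h mean of 11.23 at both times. The NF-kB subunits Nfkb1, Nfkb2, Rel and Relb were not called, with steps between -0.10 and 0.11, and neither was the inhibitor Nfkbie. Of the inhibitor family, Nfkbia and Bcl3 fell by 0.61 and 0.46.

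Immediate early genes, which are transcribed within minutes of a signal, followed a like course. Of 23 measured, 12 fell (52.2%, beside the 8.68% of all probe sets) and 1 rose (4.35%, under the 10.2% of all probe sets). Ier3 went from 8.52 ± 0.32 to 6.77 ± 0.25, Egr1 from 9.27 ± 0.63 to 7.98 ± 0.30, Jun from 8.86 ± 0.23 to 7.67 ± 0.28 and Fos from 8.66 ± 0.34 to 7.54 ± 0.41. Their 0 h means were 6.61, 8.25, 7.59 and 7.68. The gene that rose was Nr4a1, and its relatives Nr4a2 (6.39 and 6.37) and Nr4a3 (5.86 and 5.91) were not called.

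Glycolytic genes fell. Of 21 genes of glycolysis and the hypoxia response 12 fell (57.1%, beside the 8.68% of all probe sets) and 1 rose (4.76%, under the 10.2% of all probe sets), with a median step of -0.28. Both glucose transporters fell, Slc2a3 from 10.06 ± 0.29 to 8.75 ± 0.56 and Slc2a1 from 9.13 ± 0.20 to 8.37 ± 0.22. Of the enzymes 10 of 13 fell, led by Hk2, the inducible hexokinase, from 8.99 ± 0.29 to 7.24 ± 0.33, and Hk3, the hexokinase of leukocytes, from 7.54 ± 0.19 to 6.63 ± 0.29. Pfkfb4 rose by 0.34, opposite to its relative Pfkfb3, which fell by 0.64. None of the 6 other hypoxia targets, such as Vegfa (7.28 and 7.11) and Adm (6.38 and 6.43), was called, although Hif1a itself, counted among the inflammatory genes, fell from 10.62 ± 0.12 to 9.99 ± 0.12.

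Most interferon-stimulated genes fell or were not called. Of 31 measured, 14 fell (45.2%, beside the 8.68% of all probe sets), 2 rose (6.45%, under the 10.2% of all probe sets) and 15 were not called, with a median step of -0.18. Isg15, a ubiquitin-like modifier, went from 10.78 ± 0.33 to 9.56 ± 0.22, Ifit3 from 11.97 ± 0.13 to 11.17 ± 0.16, Ifit2 from 10.36 ± 0.11 to 9.57 ± 0.17 and Ifih1, the RNA sensor MDA5, from 10.47 ± 0.07 to 9.77 ± 0.04. The transcription factors Stat2 and Irf9, which carry the interferon signal, fell, with steps of -0.73 and -0.39. Rsad2, viperin, rose from 11.75 ± 0.15 to 12.56 ± 0.15 (SE 0.07, limma adjusted p 1.61e-13), above its 0 h mean of 12.18, and Ifi44l rose from 6.13 ± 0.22 to 6.66 ± 0.19. Ifit1, next in kind to Ifit2 and Ifit3, was not called (11.99 ± 0.13 and 12.03 ± 0.11), nor were Mx1 (8.73 and 8.91) and Mx2 (7.48 and 7.46), which lay well below their 0 h means of 10.44 and 9.67 at both times. The list's median differed from 0 h by -0.22 at 6 h and by -0.52 at 24 h.

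The promoters of the interferon genes were read. Interferon response elements, the sites of a complex that holds STAT2 and IRF9, were searched as TTTC, any 2 bases (NN) and TTTC in a row, on both strands, in windows from 250 bases before to 50 bases after the gene start, taken from RefSeq on build GRCr8 (the array table uses rn5). The letters were found in 15 of the 21 interferon genes with a window (71.4%), against 1131 of 27457 windows of all genes (4.12%). They were held by 4 of the 9 genes called lower, by both genes called higher and by 9 of the 10 not called. Shown are 2 windows of genes that fell, Ifit3 (chr1:241527076-241527375, plus strand) and Ifih1 (chr3:67683919-67684218, minus strand), and those of the 2 genes that rose, Rsad2 (chr6:48788071-48788370, minus strand) and Ifi44l (chr2:243328473-243328772, plus strand), 5′ to 3′ along the gene with the matches in capitals.
Ifit3: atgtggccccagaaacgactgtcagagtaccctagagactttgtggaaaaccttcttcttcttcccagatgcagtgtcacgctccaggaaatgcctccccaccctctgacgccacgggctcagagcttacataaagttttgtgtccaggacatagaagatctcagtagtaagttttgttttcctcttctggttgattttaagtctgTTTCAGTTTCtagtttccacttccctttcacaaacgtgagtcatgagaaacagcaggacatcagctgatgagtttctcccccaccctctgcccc
Ifih1: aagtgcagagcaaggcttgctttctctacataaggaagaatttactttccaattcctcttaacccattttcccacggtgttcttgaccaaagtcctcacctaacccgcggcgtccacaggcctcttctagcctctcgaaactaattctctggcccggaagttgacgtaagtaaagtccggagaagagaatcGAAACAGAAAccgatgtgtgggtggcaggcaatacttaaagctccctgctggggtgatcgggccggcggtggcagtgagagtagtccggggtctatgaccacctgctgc
Rsad2: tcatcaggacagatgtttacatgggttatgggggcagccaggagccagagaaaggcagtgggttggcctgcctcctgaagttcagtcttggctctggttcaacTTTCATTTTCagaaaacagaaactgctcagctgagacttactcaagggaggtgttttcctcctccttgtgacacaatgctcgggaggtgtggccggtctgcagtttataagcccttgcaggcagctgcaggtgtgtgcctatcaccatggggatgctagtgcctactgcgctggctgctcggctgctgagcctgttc
Ifi44l: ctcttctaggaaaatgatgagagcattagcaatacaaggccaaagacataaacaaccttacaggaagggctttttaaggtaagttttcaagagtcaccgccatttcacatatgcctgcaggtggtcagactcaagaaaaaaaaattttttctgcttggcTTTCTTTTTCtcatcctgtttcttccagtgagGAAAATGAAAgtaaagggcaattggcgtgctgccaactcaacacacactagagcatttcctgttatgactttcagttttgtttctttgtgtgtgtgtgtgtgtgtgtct
Ifi44l held 2 matches and each of the other three held 1. The first match began 44 bases before the start in Ifit3, 59 in Ifih1, 147 in Rsad2 and 91 in Ifi44l.

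The same was done for the erythroid genes, which rose together, with AGATAA, the core of the site that GATA factors bind. It was found on either strand in 7 of 22 erythroid genes with a window (31.8%), against 3352 of 27457 windows (12.2%). All 7 were among the 16 genes called higher (Alas2, Fech, Sptb, Rhd, Add2, Trim10 and Trim58), and none of the 6 not called held it. Shown are 2 of them, Sptb (chr6:101170229-101170528, minus strand) and Rhd (chr5:152370950-152371249, plus strand), with the matches in capitals. Rhd encodes the Rh blood group protein and rose from 10.99 ± 0.31 to 11.57 ± 0.24. Sptb rose from 10.93 ± 0.30 to 11.52 ± 0.26.
Sptb: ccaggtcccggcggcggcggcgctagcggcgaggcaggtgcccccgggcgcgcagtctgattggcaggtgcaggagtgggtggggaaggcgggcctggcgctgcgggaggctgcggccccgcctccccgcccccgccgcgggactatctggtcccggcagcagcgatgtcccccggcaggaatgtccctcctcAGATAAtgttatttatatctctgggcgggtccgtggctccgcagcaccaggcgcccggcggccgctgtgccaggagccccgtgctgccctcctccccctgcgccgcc
Rhd: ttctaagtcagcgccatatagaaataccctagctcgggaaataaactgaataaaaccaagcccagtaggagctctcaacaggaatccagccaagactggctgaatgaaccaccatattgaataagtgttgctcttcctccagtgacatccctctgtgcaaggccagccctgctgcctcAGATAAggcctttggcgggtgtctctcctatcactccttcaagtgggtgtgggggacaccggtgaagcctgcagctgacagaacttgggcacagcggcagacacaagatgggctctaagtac
Tfrc, which had the largest rise, held no match, which says only that these letters are not in this window.

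**Figure D5:**
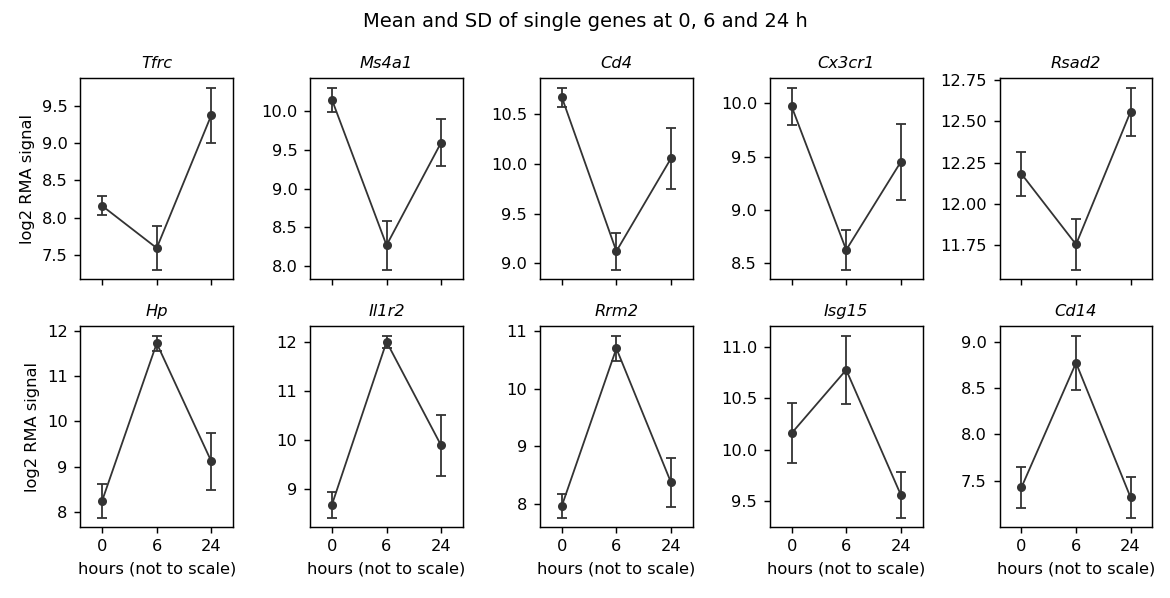
Points give the authors' mean log2 RMA signal at 0, 6 and 24 h (times evenly spaced) and bars the authors' SD over the arrays at each time (8, 7 and 8), for 5 genes that rose from 6 h to 24 h (upper row) and 5 that fell (lower row), each with its own vertical scale. Tfrc and Rsad2 end above their 0 h level and Ms4a1, Cd4 and Cx3cr1 below it, while Hp, Il1r2 and Rrm2 end above it, Isg15 ends below it, and Cd14 is not called against 0 h (a difference of -0.11).

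Of 20 glucocorticoid-responsive genes 7 fell (35%, beside the 8.68% of all probe sets) and 3 rose (15%, near the 10.2% of all probe sets). Anxa1, annexin A1, which is abundant in neutrophils, fell from 12.25 ± 0.08 to 11.33 ± 0.40 and Dusp1, a phosphatase of MAP kinases, from 11.26 ± 0.24 to 10.41 ± 0.28. The receptor Nr3c1 rose from 9.17 ± 0.12 to 9.55 ± 0.09, Cxcr4 by 0.44 and Sesn1 by 0.29. Fkbp5 (9.40 ± 0.19 and 9.23 ± 0.28) and Tsc22d3 (9.25 ± 0.14 and 9.11 ± 0.18), which glucocorticoids induce in many cells, were not called. Fkbp5 was above its 0 h mean of 8.56 at both times. Il1r2, Dusp1 and Nfkbia are counted in other lists too. Of 16 heat shock genes and chaperones 4 rose (25%, beside the 10.2% of all probe sets) and 2 fell (12.5%, near the 8.68% of all probe sets). Hsph1 rose by 0.79, Hsp90ab1 by 0.76 and Dnajb1 by 0.55. The 2 that fell were the chaperones of the endoplasmic reticulum Hspa5 and Hsp90b1, with steps of -0.56 and -0.33.

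Because the 24 h blood was drawn at another hour of the day than the 6 h blood, circadian clock genes were read. Of 20 measured, 3 were called (15% of the list, beside the 18.9% of all probe sets). Nfil3, a repressor of clock output that cytokines also induce, fell from 9.63 ± 0.07 to 8.94 ± 0.21, and Per2 fell from 7.73 ± 0.12 to 7.31 ± 0.17. Ciart, whose probe set is shared in the annotation with BC028528, rose from 11.03 ± 0.24 to 11.29 ± 0.11. The call of Ciart was lost when the spread came from 6 h and 24 h only (limma adjusted p 0.0534). The core activators Arntl (6.62 ± 0.18 and 6.72 ± 0.23) and Clock (7.94 ± 0.20 and 8.02 ± 0.18) were not called. Neither were the output factor Dbp (7.91 and 8.02) and the repressor Nr1d1 (6.57 and 6.69).

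Genes of other tissues that a heart puncture or a tail vein draw could carry were read as well. Of 19 heart muscle genes none was higher at 24 h, 2 were lower (10.5%, near the 8.68% of all probe sets) and 17 were not called, and the median signal of the list was 6.52 at 6 h and 6.49 at 24 h. The cardiac markers Myh6 (5.88 ± 0.06 and 5.96 ± 0.13), Tnni3 (5.47 and 5.58) and Nppa (6.69 and 6.70) were not called. The members with the highest signal at 24 h were Tnnc1, Ckm (7.42 and 7.47) and Tnnt2 (7.14 and 7.13). Tnnc1, the slow and cardiac troponin C, fell from 9.58 ± 0.21 to 8.46 ± 0.44, with 7.61 at 0 h, so that its mean was higher in the tail vein blood of 6 h. Of 8 endothelial genes 2 were called (25%, beside the 18.9% of all probe sets): Tek rose from 6.45 ± 0.41 to 7.15 ± 0.42 and Emcn fell by 0.26. Of 9 genes of skin and skeletal muscle, which a tail needle could carry, Sfn fell by 0.33 (11.1% of the list, beside the 8.68% of all probe sets) and the others were not called. The part of other tissues, of the overdose and of the draw site in the steps reported here was not tested.

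The spread between rats was compared too. The median SD was 0.15 at both times, and no probe set was called by a two-sided F test of the 2 variances after Benjamini-Hochberg adjustment (0 of 27596, or 0%). At an unadjusted p under 0.05 there were 1613, of which 684 had the higher variance at 24 h. As the rats are the same, the 2 variances are not independent. As a description, 26 of the 33 neutrophil genes had the higher SD at 24 h, with a median SD of 0.14 at 6 h and 0.32 at 24 h, as had 14 of 20 B cell genes (0.17 and 0.29) and 18 of 24 T cell genes (0.17 and 0.26). Platelet genes had the higher SD at 24 h in 1 of 19 (0.29 and 0.20) and ribosomal protein genes in 9 of 92 (0.25 and 0.15). Over all probe sets the share was 46.8%. Among called probe sets the share was 58.2% of those lower at 24 h and 41.4% of those higher. Genes of a list share their arrays, so that 1 rat can move many of them.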

How the data were processed

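Whole blood RNA was hybridized to Affymetrix RaGene arrays. The authors deposited 1 table of log2 signals per probe set after RMA, with their mean and SD at each time point and an rn5 annotation. The table also holds the authors' own fold changes, p-values, FDRs and F-tests, which were not used. Its 47 columns of single arrays bear running numbers that no sample label gives; an order of rats and times was not assumed, and they were not used, so the linear model planned on the arrays was computed from the deposited log2 means, SDs and array numbers instead. RNA workup was randomized over batches, which are not known here.

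Variances were pooled over the 6 time points (41 residual degrees of freedom) and moderated with limma 3.58.1 in R 4.3.3 (prior degrees of freedom 5.71), and p-values were adjusted by Benjamini-Hochberg over 27596 probe sets. The submitters' processing notes also name limma. The test treats arrays as independent, although 7 rats gave both samples. On simulated data for 27596 probe sets in the comparison of 24 h with 6 h, 90 of 100 steps of 0.5 and 99 of 100 steps of 1 were called, with 13 false calls. These counts describe the simulated data only and are not error rates for the repeated samples of the rats.

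Genes were listed by cell type, response or complex, and the members and lists were chosen with earlier results of these data known. Of 616 list entries 595 were measured, 3 of them under another symbol, each by the probe set with the highest mean over the time points; 21406 probe sets have a symbol. Genes were named by rule: the 12 largest rises and 12 largest falls among called probe sets whose step was above the higher SD, leaving out LOC and RGD symbols, and in each list the 3 largest rises and falls, all members of the clock list and of lists up to 10 genes, and the 3 highest signals of other tissues. No gene qualified by its ratio of variances. Other members, and LOC689230, were named after their values were seen. Alternatives were centring, quantile normalization of the means, leaving out the dimmest 25% of probe sets, a spread from 6 h and 24 h or from the tail vein time points only, no moderation, a trended robust prior, all probe sets of a gene and a minimum step. Promoter windows came from RefSeq (GRCr8). Figures were drawn with matplotlib 3.10.9 in Python 3.11.15. Some genes that the rule names are not reported here.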

Additional observations from a re-analysis of the deposited data

How the results depend on the processing

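No paired analysis was possible because the columns of single arrays carry only running numbers, which no sample label gives, and for the same reason no rat was left out in turn. Over the alternatives without a minimum step, the number of probe sets called higher at 24 h ranged from 2361 to 2866 and lower from 2043 to 2611; with a step of at least 0.5, chosen after seeing the data, it was 586 and 817. The number called from 3 h to 6 h was 737 in place of 1319 when the spread came from the compared time points only. The F test of the spread called 1 probe set in place of 0 without the 25% of lowest mean. Heart muscle genes called were 1 in place of 2 with the spread from 6 h and 24 h only, and endothelial genes called 1 in place of 2 without the lowest 25%. The median step of the heart muscle list, 0.01, changed sign to -0.0044 after centring, -0.0041 after quantile normalization, -0.0050 without the lowest 25% and -0.0018 over all probe sets of a gene. The cause of these changes was not tested. Of 288 called list members and leading genes, 11 lost their call after centring, 20 after quantile normalization, 32 with the spread from 6 h and 24 h only, 3 without moderation and 1 with the trended prior, none of 286 did without the lowest 25%, and none changed direction. Among those described, Btk, RT1-Db1, Alas2, Urod, Rpl21, Rpl3l, Sesn1, Fcgr3a, Hdc and Ciart lost it in at least 1 of these.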
